A study of Rattus norvegicus with 35 samples.

Results

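Livers of control rats, which had no bile duct ligation, were compared between rats bled and then resuscitated (hemorrhage/resuscitation, H/R) and rats given a sham procedure. The comparison took the 11 arrays of the series' 35 whose labelled treatment group was control H/R (n = 6) or control sham (n = 5), with 1 liver sample per array and all 13438 genes tested. The other arrays came from ligated rats without drug (5 sham, 6 H/R) and ligated rats given simvastatin (5 sham, 8 H/R). In these 4 groups the common bile duct had been tied 4 weeks earlier, which produces secondary biliary cirrhosis. The simvastatin pair received 5 mg/kg daily by gavage, starting 3 days before H/R or sham and ending 1 h before it. Control rats carried neither the ligation nor the drug. Strain, sex, age, the volume bled and the time from resuscitation to sampling are not given in the labels, and neither is any pairing of a bled with a sham rat. Replicate numbers only name the arrays in the order of the labels. Since the labels say nothing more of the animals, a p-value here refers to the variation among arrays. Unless the control groups alone are named, the spread behind each p-value and SE was estimated per gene within the groups of all 35 arrays.

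H/R is a model of hemorrhagic shock, in which the liver is first starved of blood flow and oxygen and is then reperfused. Liver cells are known to answer such stress with the heat shock response, in which the transcription factor HSF1 binds heat shock elements in promoters and raises chaperones that keep damaged proteins from clumping. Other known programmes include the p53 response, hypoxia-inducible genes, the amino acid response through ATF4, immediate early transcription factors, inflammatory mediators, and the acute phase proteins that hepatocytes secrete. The comparison asks which of these moved in livers without cirrhosis.

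Values are normalized log2 signals per probe set, so a difference of 1 is a doubling. The background of a group was the mean of the brightest nonspecific control probe of each array, which was 4.05 to 4.91 on the sham arrays and 4.14 to 5.16 on the H/R arrays. Where the dimmer group's mean was not above it, a fold is written as at least that size. Such a bound sets the brighter group's mean against the dimmer group's mean after each of its arrays was raised, where lower, to that array's own background. By this rule 8022 genes were above background in sham livers and 7909 in H/R livers. The hepatocyte list was bright on all arrays, with a mean level over its 18 measured genes of 11.50 to 11.64 in sham and 11.56 to 11.65 in H/R livers, while 9 of the 10 measured markers of muscle, pancreas, fat and kidney were not above background in either group. The exception was the pancreatic elastase gene Cela1, at 7.63 in sham and 7.49 in H/R livers. Array medians were 3.97 to 4.02 on the control arrays and 4.06 to 4.29 on the arrays of ligated rats. Correlations between control arrays were 0.972 to 0.985, and 0 pairs were identical. The spike-in controls BioD and BioB differed by 2.13 to 2.41 log2 on the control arrays and by 2.51 to 3.00 on the arrays of ligated rats. Levels compared between control and ligated groups cannot be told apart from these array differences. The difference between 3′ and 5′ probes of beta-actin, a sign of RNA length, was 2.08 to 2.34 log2 in sham and 1.75 to 2.20 in H/R arrays, and that of GAPDH was 0.16 to 0.31 and 0.08 to 0.31. One array of the other groups stood apart in both, simvastatin sham replicate 1, at 4.30 for beta-actin and 2.20 for GAPDH, where the other 34 arrays reached at most 2.34 and 0.34. It enters the fit of all 35 arrays, and results that rest on it are given with and without it.

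After H/R 115 genes (0.856% of those tested) passed an adjusted p of 0.05 in limma, 49 of them higher (0.365%) and 66 lower (0.491%). The median absolute change of the 115 was 0.79 log2, against 0.14 for all genes tested, and 48.8% of all genes had a positive change. At an unadjusted p under 0.05 there were 1635 genes (12.2%). A measured or bounded fold of at least 2 was reached by 19 of the higher and 14 of the lower genes, and 11 of the 115 were above background in neither group and get no fold. In 62 of the 115 the H/R arrays did not overlap the sham arrays, which was true of 269 genes in all (2%), 0.752% with H/R higher and 1.25% with H/R lower.

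How many genes passed depended on the arrays in the fit. The fit used all 35 arrays, and a fit of the 2 control groups alone passed 11 genes, 8 higher and 3 lower. In that fit the change of each gene is the same difference of group means, so its sign could not differ. Adjusted p-values of the 115 genes ran up to 0.30 there, with a median of 0.15. Their median SD was 0.328 log2 within the control groups and 0.264 within the ligated groups, and it was larger in the control groups for 89 of the 115, as it was for 46.7% of all genes. Of the 11 genes 9 were among the 115: Hspb1, Dnaja4, Clec4m, Ccng1, Tle3 and Xiap, which rose, and Phgdh, Foxp2 and Cenps, which fell. Leaving out 1 array moved the count between 50, without H/R replicate 4, and 190, without H/R replicate 3. It was 51 without H/R replicate 6, 56 and 61 without sham replicates 4 and 5, and 173 without H/R replicate 5. With each of the 11 arrays left out in turn, 34 genes passed every time, 13 higher and 21 lower. Without simvastatin sham replicate 1 the count was 145, 65 higher and 80 lower, and it included all 115. Of the genes named below, Ccnd1 passed in 2 of the 11 fits with a control array left out, Slc13a5, Tyms, Zfand2a, Poteml2 and Pycr3 in 3, Hsph1, Fosl1 and Mmp13 in 4, Acp3, Fabp4 and Plod2 in 5 and Asns, Dixdc1, Hspa4l and Mdm2 in 6. None of these 16 genes passed with the control groups alone. Wfdc2, Cenps and Xiap passed in 7 of the 11 fits, Rnf152 in 8, Aldh18a1 in 9 and Pbsn in 10.

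**Figure D1:**
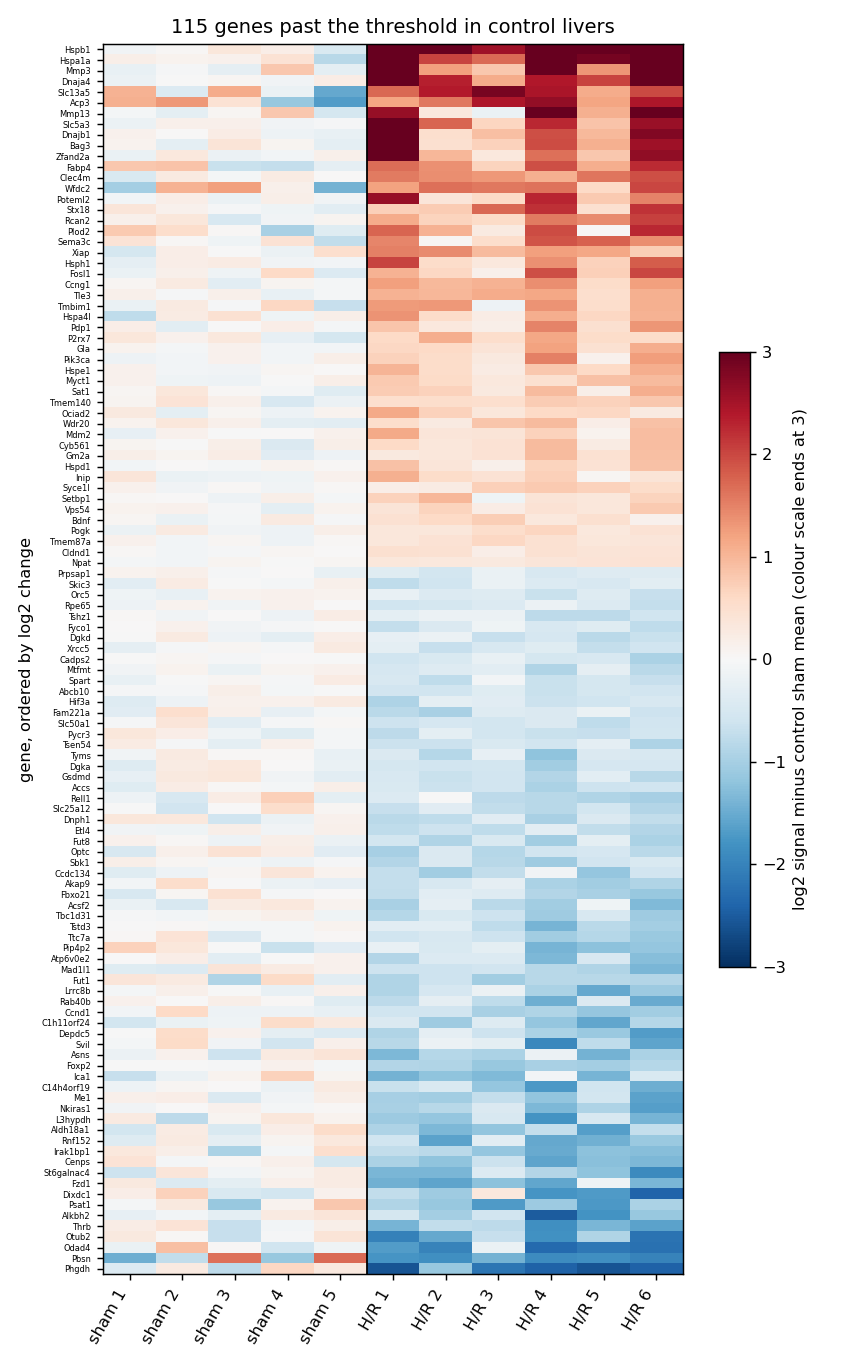
The log2 signal of each of the 115 genes past the threshold is shown as its deviation from the control sham mean, in the 5 control sham arrays (left of the line) and the 6 control H/R arrays (right). Rows run from the largest rise, Hspb1, to the largest fall, Phgdh. The H/R columns 1, 4 and 6 are the deepest red among the rises.

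Heat shock genes held the largest rises. The list of heat shock proteins and HSF1 targets had 27 measured genes, of which 9 rose and 0 fell, and 25 of the 27 had a positive change. In counts of list members, rose and fell mean past the threshold in that direction. Over all genes tested 0.365% passed higher, 0.491% passed lower and 48.8% had a positive change. The lists here and below were chosen with earlier results of these data known, so their counts are descriptions. The list's median change was 0.49 log2, against -0.00646 for all genes. Its mean level was 7.58 to 7.73 on the sham arrays and 8.01 to 9.19 on the H/R arrays, so the groups did not overlap. Of the 9 genes 2, Hspb1 and Dnaja4, also passed in the fit of the control groups alone, and between 7 and 10 genes of the list passed with 1 array left out.

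Hspb1 is a small heat shock protein that holds unfolding proteins in solution. It gave 5.89, 6.04, 6.34, 6.20 and 5.55 log2 in the 5 sham arrays, and 8.55 at the lowest, 10.14 at the median and 11.89 at the highest in the 6 H/R arrays. Every H/R array lay above every sham array, by at least 2 log2 units, with replicate 1 highest and replicate 3 lowest. The change was 4.30 ± 0.44 (SE), a 19.6-fold rise (adjusted p = 3.2e-07, and 0.0035 in the fit of the control groups alone).

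Hspa1a, the stress-inducible form of Hsp70, gave 7.55, 7.47, 7.49, 7.80 and 6.54 in sham livers and 9.08, 10.51 and 12.49 at the lowest, median and highest H/R array. The groups did not overlap and the H/R arrays spread over more than 3 log2 units. Its change of 3.27 ± 0.50 corresponds to 9.64-fold (adjusted p = 0.00032, and 0.051 with the control groups alone). The probe set may also detect its near-identical neighbour Hspa1b, which was not among the genes tested.

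J-domain cochaperones hand clients to Hsp70 and switch on its ATPase, and Dnaja4 and Dnajb1 rose. Dnaja4 was 6.23, 6.38, 6.47, 6.30 and 6.62 in sham livers and 7.52, 8.77 and 10.24 at the lowest, median and highest H/R array, a rise of 5.67-fold (log2 2.50 ± 0.26, adjusted p = 3.2e-07, and 0.031 in the fit of the control groups alone). Its 2 further probe sets rose by 2.31 ± 0.25 and 1.86 ± 0.28. Dnajb1 was 8.42, 8.29, 8.52, 8.13 and 8.07 in sham livers and 8.79, 9.74 and 11.97 in H/R livers, and rose 3.48-fold (log2 1.80 ± 0.33, adjusted p = 0.0041), with 1.93 ± 0.27 on its second probe set. In both genes H/R replicates 1 and 6 stood highest, and no H/R array reached down to the sham range. Dnaja1, another member of the family, was 10.78 ± 0.14 (SD, n = 5) in sham and 11.40 ± 0.55 (SD, n = 6) in H/R livers and did not pass (adjusted p = 0.15).

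Bag3 and the Hsp110 proteins release nucleotide from Hsp70 and so turn its cycle. Bag3 was 8.01, 7.62, 8.30, 8.00 and 7.61 in sham livers and 8.40, 9.42 and 11.10 at the lowest, median and highest H/R array (3.15-fold, log2 1.65 ± 0.31, adjusted p = 0.0041). Hsph1, an Hsp110, rose 2.18-fold (log2 1.12 ± 0.27, adjusted p = 0.034, and 1.19 ± 0.29 on its second probe set), and its relative Hspa4l rose 1.76-fold (log2 0.82 ± 0.18, adjusted p = 0.023). Hspa4, another member of that family, had a change of 0.36 ± 0.14 (adjusted p = 0.23). Among the 9 genes that passed, the smallest changes were in the mitochondrial chaperonin pair. Hspd1 rose 1.47-fold (log2 0.56 ± 0.12, adjusted p = 0.012) and its lid Hspe1 1.64-fold (log2 0.71 ± 0.11, adjusted p = 0.00054), and for both the 6 H/R arrays lay above the 5 sham arrays.

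Other members of the list did not pass. Hspa8, the constitutive Hsc70, had a change of 0.18 ± 0.15 (adjusted p = 0.68), Hsp90ab1 0.38 ± 0.13 (0.15), the Hsp90 activator Ahsa1 0.01 ± 0.09 (0.98) and the Hsp90 adaptor Stip1 0.43 ± 0.16 (0.19). The transcription factors themselves, Hsf1 at -0.11 ± 0.14 and Hsf2 at 0.05 ± 0.13, did not pass either (adjusted p = 0.83 and 0.94). Cryab, alpha-B crystallin, had one of the larger changes of the list, 1.53 ± 0.47, but was not above background in sham livers. Its H/R arrays ran from 4.41 to 7.68, overlapping the sham range of 3.76 to 4.74, and it did not pass (adjusted p = 0.11). Zfand2a, which targets damaged proteins to the proteasome and was not on the list, was among the 15 largest rises, at 3.08-fold (log2 1.62 ± 0.39, adjusted p = 0.038).

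**Figure D2:**
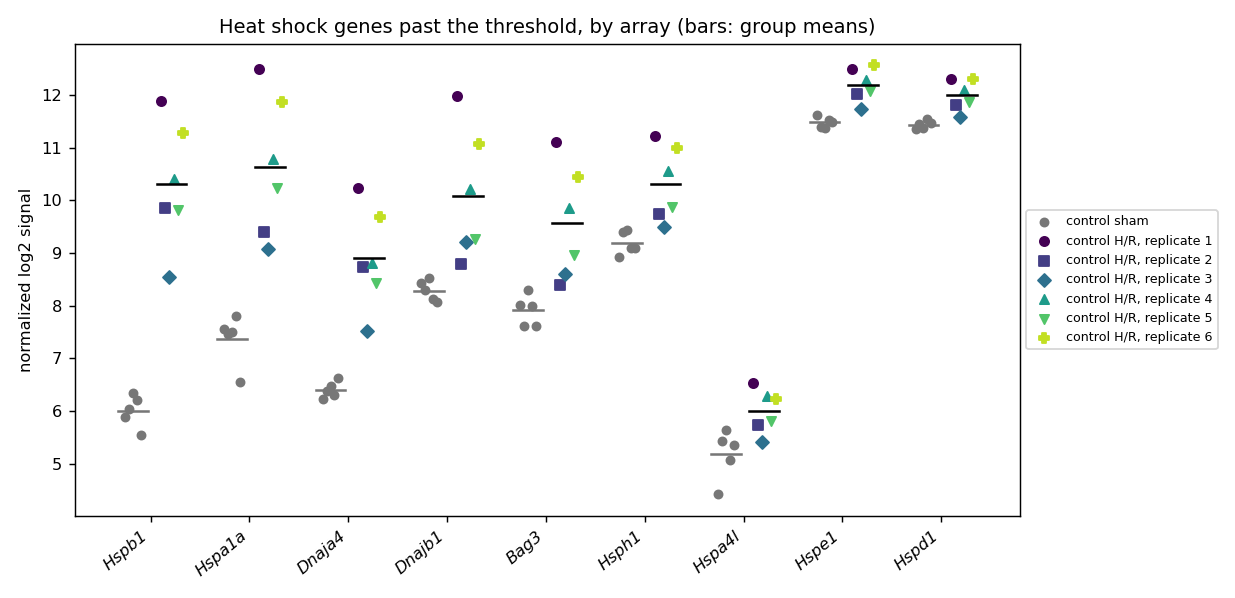
Normalized log2 signal (y axis) of the 9 heat shock genes past the threshold in each control array, with sham arrays in grey, 1 symbol per H/R replicate and bars at the group means. The H/R symbols keep nearly the same order from gene to gene, with replicates 1, 4 and 6 above replicates 2, 3 and 5.

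The H/R livers differed among themselves in nearly the same order in each of these genes. H/R replicate 1 was the highest of the 6 in 8 of the 9 genes and replicate 6 in the other, replicate 3 was the lowest in 7 and replicate 2 in the remaining 2. Replicates 1, 4 and 6 were the 3 highest in all 9, and in 18 of the 27 measured heat shock genes, as they were in 8.14% of all genes. The median distance of the 9 genes from their sham means was 3.19 log2 in replicate 1, 2.53 in replicate 6, 1.93 in replicate 4, 0.99 in replicate 5, 0.69 in replicate 3 and 0.55 in replicate 2. Over all 49 genes that rose, the median distance was 1.23 in replicate 4, 1.13 in replicate 1 and 1.10 in replicate 6, and 0.52 to 0.60 in the other three. Over the 66 that fell it was -0.95 in replicates 4 and 6, and -0.56 to -0.76 in the others. The labels give no detail that separates these 6 livers, and the order was not tested.

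The sequences just before the start sites of these genes were searched for the heat shock element, an array of alternating GAA and TTC units, because the members moved together. Of the 27 genes 25 had a promoter in the RefSeq tables (build GRCr8). Windows were the 250 bases before the annotated start site. Units alternated, GAA then TTC or TTC then GAA, with any 2 bases between neighbours, on either strand. The longer form searched had 3 such units and the shorter, which the longer contains, had 2. The longer form was found in 4 of 43 promoters of genes that rose (9.3%), in 0 of 51 of genes that fell and in 0.37% of the promoters of the genes tested, or 0.597% of all promoters. The 4 were Hspd1, Hspe1, Hsph1 and Plod2, a lysyl hydroxylase of collagen that rose at least 1.76-fold (log2 1.21 ± 0.30, adjusted p = 0.044), lies outside the heat shock list and is named after its value was seen. In the heat shock list the longer form was found in 5 of 25 promoters (20%), those of the 3 list members just named and of Hspa8 and Serpinh1, a collagen chaperone, which did not pass (log2 0.49 ± 0.26, adjusted p = 0.45). The shorter form was found in 12 of the 43 (27.9%), in 1 of the 51 (1.96%) and in 10.0% of the promoters of the genes tested, and in 14 of the 25 heat shock promoters (56%). Members of the heat shock list made up 6 of these 12 and 3 of the 4 genes with the longer form. That list was drawn up as HSF1 targets, and Hspd1 and Hspe1 share the same elements but count separately. The shares are therefore a description and not separate evidence for HSF1.

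The promoters of 6 genes that rose are printed 5′ to 3′ to show how many units each holds, with every match to the shorter form in capitals. Hspe1 (chr9:64084077-64084326, plus strand) and Hspd1 (chr9:64084038-64084287, minus strand) are transcribed away from each other and share the same elements, so the window of Hspe1 stands for both.
Hspe1: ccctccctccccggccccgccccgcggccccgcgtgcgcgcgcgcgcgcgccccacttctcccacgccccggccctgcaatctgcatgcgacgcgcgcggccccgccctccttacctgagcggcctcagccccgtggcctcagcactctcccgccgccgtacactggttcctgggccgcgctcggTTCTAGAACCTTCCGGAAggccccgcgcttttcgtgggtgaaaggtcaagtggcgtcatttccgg
Hsph1: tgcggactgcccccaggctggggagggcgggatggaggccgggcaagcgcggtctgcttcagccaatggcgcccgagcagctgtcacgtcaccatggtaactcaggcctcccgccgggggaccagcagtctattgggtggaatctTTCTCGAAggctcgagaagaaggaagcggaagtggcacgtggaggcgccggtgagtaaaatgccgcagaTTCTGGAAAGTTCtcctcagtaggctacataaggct
Plod2: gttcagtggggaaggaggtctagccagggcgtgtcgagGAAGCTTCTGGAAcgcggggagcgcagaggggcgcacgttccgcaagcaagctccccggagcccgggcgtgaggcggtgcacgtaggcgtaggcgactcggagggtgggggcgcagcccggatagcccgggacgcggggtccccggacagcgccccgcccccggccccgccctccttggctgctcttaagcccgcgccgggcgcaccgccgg
Hspb1: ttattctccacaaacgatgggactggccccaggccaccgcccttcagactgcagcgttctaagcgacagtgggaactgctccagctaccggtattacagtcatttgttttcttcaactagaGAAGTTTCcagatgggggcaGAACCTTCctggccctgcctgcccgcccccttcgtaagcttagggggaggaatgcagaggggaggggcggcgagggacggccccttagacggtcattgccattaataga
Bag3: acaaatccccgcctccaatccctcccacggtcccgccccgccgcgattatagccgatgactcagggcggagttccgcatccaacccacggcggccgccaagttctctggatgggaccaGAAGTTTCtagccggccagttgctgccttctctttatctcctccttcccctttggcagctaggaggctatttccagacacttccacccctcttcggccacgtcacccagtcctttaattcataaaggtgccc
Dnajb1: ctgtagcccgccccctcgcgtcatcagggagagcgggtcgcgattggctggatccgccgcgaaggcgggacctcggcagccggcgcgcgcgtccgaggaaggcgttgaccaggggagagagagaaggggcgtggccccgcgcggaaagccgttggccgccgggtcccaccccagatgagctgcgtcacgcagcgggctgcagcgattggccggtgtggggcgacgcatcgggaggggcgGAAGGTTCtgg
The other windows lie at chr12:10427118-10427367, plus strand for Hsph1, chr8:101964068-101964317, plus strand for Plod2, chr12:26432302-26432551, minus strand for Hspb1, chr1:192533210-192533459, plus strand for Bag3 and chr19:41431142-41431391, minus strand for Dnajb1. Overlapping matches in Hspe1, Hsph1 and Plod2 join into longer runs. The nearest match began 55 bases before the start site in Hspe1, 31 in Hsph1, 207 in Plod2, 109 in Hspb1, 132 in Bag3 and 11 in Dnajb1. Hspa1a, Dnaja4 and Hspa4l had no match in this window, which says only that these letters are not in it. A match is a run of letters and not a measured binding site.

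The chaperone lists apart from the heat shock list held no gene past the threshold. None of 13 measured genes of the cytosolic chaperonin and prefoldin, 12 mitochondrial chaperones and proteases outside the Hspd1 and Hspe1 pair, and 24 genes of the endoplasmic reticulum chaperones and the unfolded protein response passed, with median changes of -0.05, -0.13 and -0.06 log2. In the last list 2 of the 24 genes had an unadjusted p under 0.05, where 12.2% of all genes did. Eif2ak3, the PERK kinase that senses unfolded protein, had a change of 0.47 ± 0.15 (adjusted p = 0.12), and Hyou1, a chaperone of the lumen, one of -0.51 ± 0.24 (0.37).

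Of 6 measured genes of serine and asparagine synthesis 3 fell, Phgdh, Psat1 and Asns, and 0 rose. The median change of the 6 was -0.64 log2, and with the control groups alone 1 of them passed. Phgdh catalyses the first step from 3-phosphoglycerate to serine. It gave 7.06, 7.73, 6.69, 8.09 and 7.76 log2 in the sham arrays and 4.87, 5.03 and 6.32 at the lowest, median and highest H/R array. The groups did not overlap, and H/R replicate 2 stood apart above the other 5, which lay between 4.87 and 5.27. The fall was 4.70-fold (log2 -2.23 ± 0.28, adjusted p = 9.9e-06, and 0.013 with the control groups alone).

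Psat1, the aminotransferase of the second step, gave 7.83, 8.19, 6.76, 8.01 and 8.71 in sham livers and 6.17, 6.79 and 6.99 at the lowest, median and highest H/R array. Sham replicate 3 lay within the H/R range, and the change was -1.25 ± 0.24 (2.38-fold lower, adjusted p = 0.0052). Asns, which makes asparagine from aspartate, gave 7.79, 8.10, 7.35, 8.24 and 8.35 in sham livers and 6.55, 7.02 and 7.80 in H/R livers (log2 -0.95 ± 0.21, 1.93-fold lower, adjusted p = 0.023). Here H/R replicate 4 reached into the sham range. Psat1 and Asns did not pass in the fit of the control groups alone (adjusted p = 0.13 and 0.15). Psph, the phosphatase of the last step of serine synthesis, was 7.11 ± 0.50 (SD, n = 5) in sham and 7.06 ± 0.27 (SD, n = 6) in H/R livers (log2 -0.05 ± 0.18, adjusted p = 0.96). The hydroxymethyltransferases Shmt1 and Shmt2, which pass the carbon of serine to folate, had changes of -0.33 ± 0.15 and -0.32 ± 0.22 and did not pass (adjusted p = 0.35 and 0.61), although all H/R arrays of Shmt1 lay below its sham arrays.

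Phgdh, Psat1 and Asns are known targets of ATF4. Of the 29 other measured genes of the amino acid response and ATF4 list 1 fell and 0 rose, with a median change of 0.04. At an unadjusted p under 0.05 were 7 of the 29, where 12.2% of all genes were. The gene that fell was Aldh18a1, which starts proline synthesis from glutamate, at least 1.71-fold lower (log2 -1.09 ± 0.23, adjusted p = 0.015). Slc7a1, the cationic amino acid carrier, had a change of the same size, -1.10 ± 0.29, with overlapping groups (adjusted p = 0.057). Cars1, the cysteinyl-tRNA synthetase, stood at 8.07 ± 0.36 (SD, n = 5) and 7.45 ± 0.17 (SD, n = 6) without passing (adjusted p = 0.089). Pycr3, a reductase of proline synthesis that lies outside the lists, fell 1.50-fold (log2 -0.59 ± 0.14, adjusted p = 0.040). Pycr3 was chosen after its value was seen. The 250 bases before each start site were also searched for the C/EBP-ATF element, a motif named for C/EBP and ATF factors. It was found in 0 of 6 promoters of the serine and asparagine list. In the amino acid response list it was found in 9 of 27 (33.3%). Of genes that fell 1 of 51 held it (1.96%), and of genes that rose 0 of 43. The share for all genes tested was 2.08%. No match says only that the letters are not in the window, and a role of ATF4 was not tested.

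**Figure D3:**
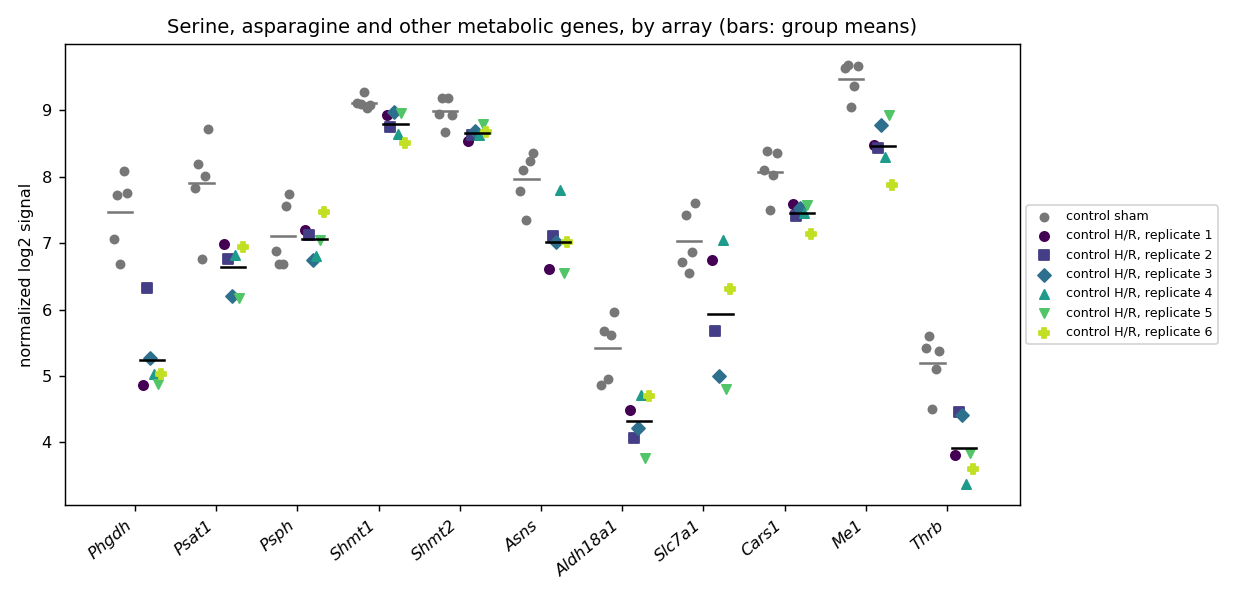
Normalized log2 signal (y axis) of serine, asparagine and other metabolic genes in each control array, drawn as in the plot of heat shock genes. Phgdh and Me1 separate the groups, while the groups of Psph, Shmt2 and Slc7a1 overlap.

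Of 18 measured p53 targets 2 rose and 0 fell, where 0.365% of all genes passed higher and 0.491% lower. The list's median change was 0.06, with 10 positive and 8 negative changes. At an unadjusted p under 0.05 were 3 of the 18, where 12.2% of all genes were. Ccng1, cyclin G1, gave 7.71, 7.91, 7.32, 7.72 and 7.58 in sham livers and 8.20, 8.79 and 9.04 at the lowest, median and highest H/R array. The groups did not overlap, and the H/R values had an SD of 0.30 (n = 6). The rise was 2.10-fold (log2 1.07 ± 0.15, adjusted p = 7.2e-05, and 0.025 with the control groups alone). Mdm2, the ubiquitin ligase that p53 induces and that degrades p53, rose 1.52-fold (log2 0.60 ± 0.13, adjusted p = 0.022), and its further probe sets rose by 0.86 ± 0.21 and 0.60 ± 0.15. It did not pass with H/R replicate 1, 4 or 6 or sham replicate 1 or 4 left out, nor with the control groups alone (adjusted p = 0.21). Cdkn1a, the p21 inhibitor of cyclin-dependent kinases, had a change of 0.49 ± 0.24 (adjusted p = 0.42).

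Of 19 measured metalloproteinases and inhibitors 2 rose, 17 had a positive change, and the median was 0.29. Over all genes 0.365% passed higher and 48.8% had a positive change. Only 10 of the 19 were above background in sham livers and 11 in H/R livers, so part of the list is dim. Mmp3, stromelysin 1, gave 3.22, 3.41, 3.16, 4.26 and 3.15 in sham livers, with a mean below background, and 4.25, 5.69 and 8.78 at the lowest, median and highest H/R array (at least 2.92-fold, log2 2.64 ± 0.53, adjusted p = 0.008). Mmp13, a collagenase, gave 2.27 to 3.61 in sham and 2.60 to 7.26 in H/R livers (at least 1.14-fold, log2 1.91 ± 0.47, adjusted p = 0.040). In both genes the groups overlapped. Both were highest in H/R replicate 4, with 8.78 and 7.26, then in replicates 6 and 1. In the other three H/R arrays Mmp3 stayed between 4.25 and 4.77 and Mmp13 between 2.60 and 3.86, against a background of 4.59 in that group. Mmp3 passed with each of the 11 arrays left out in turn and Mmp13 in 4 of the 11 fits, and neither passed with the control groups alone (adjusted p = 0.18 and 0.30).

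The neutrophil and acute phase genes that were highest in the same arrays did not pass. Lcn2, a neutrophil and hepatocyte lipocalin, was 12.23 in H/R replicate 4 and 11.57 in replicate 6 against 9.11 to 10.43 in the other four and 8.78 to 10.08 in sham livers (log2 0.97 ± 0.39, adjusted p = 0.27). S100a8, a calcium-binding protein of neutrophils, was 8.50 and 8.78 in those arrays, but sham replicate 3 reached 8.02 (log2 1.20 ± 0.63, adjusted p = 0.44). Of 9 measured neutrophil markers 8 had a positive change and 0 passed, with a median of 0.59. Their mean level ran from 3.95 to 5.00 in sham and from 4.40 to 5.93 in H/R livers, 3 of the 9 were above background, and Csf3r and Cxcr2 were above it in neither group. The part of these cells in the metalloproteinase result was not tested.

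Single members of further lists passed. Slc5a3, the carrier that brings the osmolyte myo-inositol into cells, gave 5.58 to 5.90 in sham and 6.40, 7.75 and 9.09 at the lowest, median and highest H/R array, without overlap (3.75-fold, log2 1.91 ± 0.39, adjusted p = 0.010). Its second probe set, which was dim at 2.44 and 2.36 log2, had a change of -0.08 ± 0.13. Fosl1, a subunit of the AP-1 transcription factor, was above background in neither group and gets no fold (log2 1.08 ± 0.26, adjusted p = 0.034). It was the only 1 of 27 immediate early genes to pass, and Nr4a2 came next with 0.97 ± 0.29 (0.098). Slc13a5, the citrate carrier that feeds lipid synthesis, gave 8.00, 6.56, 8.09, 6.76 and 5.43 in sham livers and 8.07, 9.14 and 9.82 in H/R livers (4.23-fold, log2 2.08 ± 0.51, adjusted p = 0.039). Its sham arrays were the more spread (SD 1.11 against 0.62), and the highest of them lay just above the lowest H/R array. Of the 19 lipogenesis genes 16 had a negative change, and Acly and Elovl6, enzymes of that path, had -0.91 ± 0.25 and -0.98 ± 0.32 without passing (adjusted p = 0.082 and 0.14). A second probe set of Elovl6 had -1.74 ± 0.32 (unadjusted p = 4.8e-06).

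Me1, the cytosolic malic enzyme that supplies NADPH, fell 2.02-fold without overlap, from 9.04 to 9.68 in sham to 7.88 to 8.93 in H/R livers (log2 -1.02 ± 0.18, adjusted p = 0.004), with -0.63 ± 0.20 on its second probe set. It was the only 1 of 23 measured NRF2 targets to pass, and 17 of the 23 had a positive change. Srxn1, sulfiredoxin, was 8.02 ± 0.29 (SD, n = 5) and 8.88 ± 0.69 (SD, n = 6) and did not pass (adjusted p = 0.16). Thrb, the thyroid hormone receptor beta, a known activator of Me1, gave 5.42, 5.60, 4.50, 5.11 and 5.37 in sham livers and 3.37, 3.83 and 4.46 in H/R livers. All H/R arrays lay below the sham arrays, the fall was at least 1.49-fold (log2 -1.28 ± 0.25, adjusted p = 0.0057), and a second, dim probe set had -0.28 ± 0.17. No other gene of the 15 in the thyroid hormone list passed.

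Among signalling and cell cycle genes Fzd1, a Wnt receptor, fell 2.33-fold (log2 -1.22 ± 0.21, adjusted p = 0.0019), with 5 of the 6 H/R arrays at 6.15 to 6.49 and replicate 5 at 7.61, inside the sham range of 7.32 to 8.03. Dixdc1, an activator of Wnt signalling, fell 2.35-fold (log2 -1.23 ± 0.28, adjusted p = 0.023), with H/R replicate 3 at 8.32 among sham values. They were the 2 of 27 Wnt genes that passed. Ccnd1, cyclin D1 of the G1 phase, gave 7.58 to 8.39 in sham and 6.65 to 7.22 in H/R livers and fell 1.84-fold (log2 -0.88 ± 0.22, adjusted p = 0.041), with -0.87 ± 0.22 and -0.78 ± 0.23 on its further probe sets. Tyms, thymidylate synthase, passed downward from a level below background in both groups (log2 -0.61 ± 0.15, adjusted p = 0.042), and the median of the 26 cell cycle genes was -0.04. Alkbh2, which reverses alkylation damage in DNA, fell 2.40-fold without overlap (log2 -1.26 ± 0.26, adjusted p = 0.011), the only 1 of 15 repair genes to pass.

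The remaining large changes lay outside the lists. Clec4m, a C-type lectin of the DC-SIGN family, gave 3.33, 4.05, 3.71, 4.02 and 3.78 in sham livers, below background, and 4.84, 5.26 and 5.70 at the lowest, median and highest H/R array (at least 1.68-fold, log2 1.48 ± 0.17, adjusted p = 2.7e-06, and 0.0038 with the control groups alone). The 6 H/R arrays were close together and above the sham arrays. Fabp4, a fatty acid carrier of fat cells and macrophages, rose 2.83-fold (log2 1.50 ± 0.35, adjusted p = 0.029), Acp3, an acid phosphatase, 3.75-fold (log2 1.91 ± 0.47, adjusted p = 0.041) and Wfdc2, a secreted protein of the whey acidic family, 2.72-fold (log2 1.45 ± 0.33, adjusted p = 0.023). The groups overlapped in each of these genes. Poteml2 rose 2.56-fold without overlap (log2 1.35 ± 0.33, adjusted p = 0.034).

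Otub2, a deubiquitinating enzyme, gave 6.91, 6.65, 5.93, 6.59 and 6.99 in sham livers and 4.41, 4.94 and 5.93 in H/R livers, a fall of 2.89-fold (log2 -1.53 ± 0.22, adjusted p = 0.0001) that its second probe set shared with -1.26 ± 0.23. The groups met at 5.93, the value of sham replicate 3 and of H/R replicate 3. Odad4, a docking factor of ciliary dynein, fell at least 2.07-fold (log2 -1.76 ± 0.28, adjusted p = 0.00054), with 5 H/R arrays at 3.55 to 4.22 and replicate 3 at 5.69. The other falls among the 15 largest were Irak1bp1 (2.18-fold), Rnf152 (2.15-fold), L3hypdh (2.09-fold), St6galnac4 (2.29-fold) and Cenps (at least 1.35-fold), with adjusted p between 0.0041 and 0.023. Dim further probe sets of L3hypdh and St6galnac4 did not show the fall, at 0.08 ± 0.20, 0.17 ± 0.12 and -0.19 ± 0.12. Pbsn, whose sham values were 5.61 and 5.67 in replicates 3 and 5 and 2.49 to 3.22 in the others, was above background in neither group. Outside the rule for naming, and chosen after their values were seen because they passed with the control groups alone, Tle3, a transcriptional corepressor, rose at least 1.75-fold (log2 0.98 ± 0.19) and Xiap, an inhibitor of caspases, rose 2.24-fold (log2 1.17 ± 0.27). Foxp2 passed downward from below background in both groups.

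Over all 36 lists 650 distinct genes were measured, and 27 of them passed, where 0.856% of all genes tested did. The lists were chosen with earlier results of these data known, so this count is a description. In 13 lists at least 1 member passed and in 23 none did. At an unadjusted p under 0.05 stood 12.2% of all genes, against which the counts at that level are to be read. Lists with 0 members past the threshold in limma included hypoxia, with 5 of 26 genes at an unadjusted p under 0.05 and a median of 0.21, and the interferon-stimulated genes, with 7 of 19 and a median of 0.26. Ndrg1, a hypoxia-inducible gene, had a change of 0.80 ± 0.22 (adjusted p = 0.076), and Tap1, an interferon-inducible peptide carrier, one of 0.80 ± 0.22 (0.064). Rsad2, viperin, was 9.31 in H/R replicate 4 and 5.31 to 6.48 in the other five (adjusted p = 0.13). Cytokines, chemokines and adhesion molecules held 33 genes with a median of -0.01 and 0 at an unadjusted p under 0.05. Acute phase proteins (22 genes, median 0.01, 1 at an unadjusted p under 0.05), gluconeogenesis and glucocorticoid response (21, -0.04, 1), fatty acid oxidation (22, -0.16, 1) and the urea cycle (10, -0.01, 0) likewise held none. Sterol synthesis (20, -0.26, 4), bile acid genes (23, -0.10, 4), cytochrome P450 genes (14, -0.20, 5) and the clock (15, -0.02, 3) held none past the threshold either.

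Cell type markers gave the same count. None of the measured markers of hepatocytes (18), cholangiocytes (12), stellate and matrix cells (20), sinusoidal endothelium (12), Kupffer cells and macrophages (14), lymphocytes (18), red cells (6) and other tissues (10) passed, with medians from -0.14 for the endothelium to 0.18 for macrophages and between 0 and 3 genes each at an unadjusted p under 0.05. Kdr, the endothelial VEGF receptor, had the smallest adjusted p of the endothelial list (log2 -0.66 ± 0.20, adjusted p = 0.11). In whole liver RNA a change in the share of a cell type and a change of RNA per cell cannot be told apart.

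**Figure D4:**
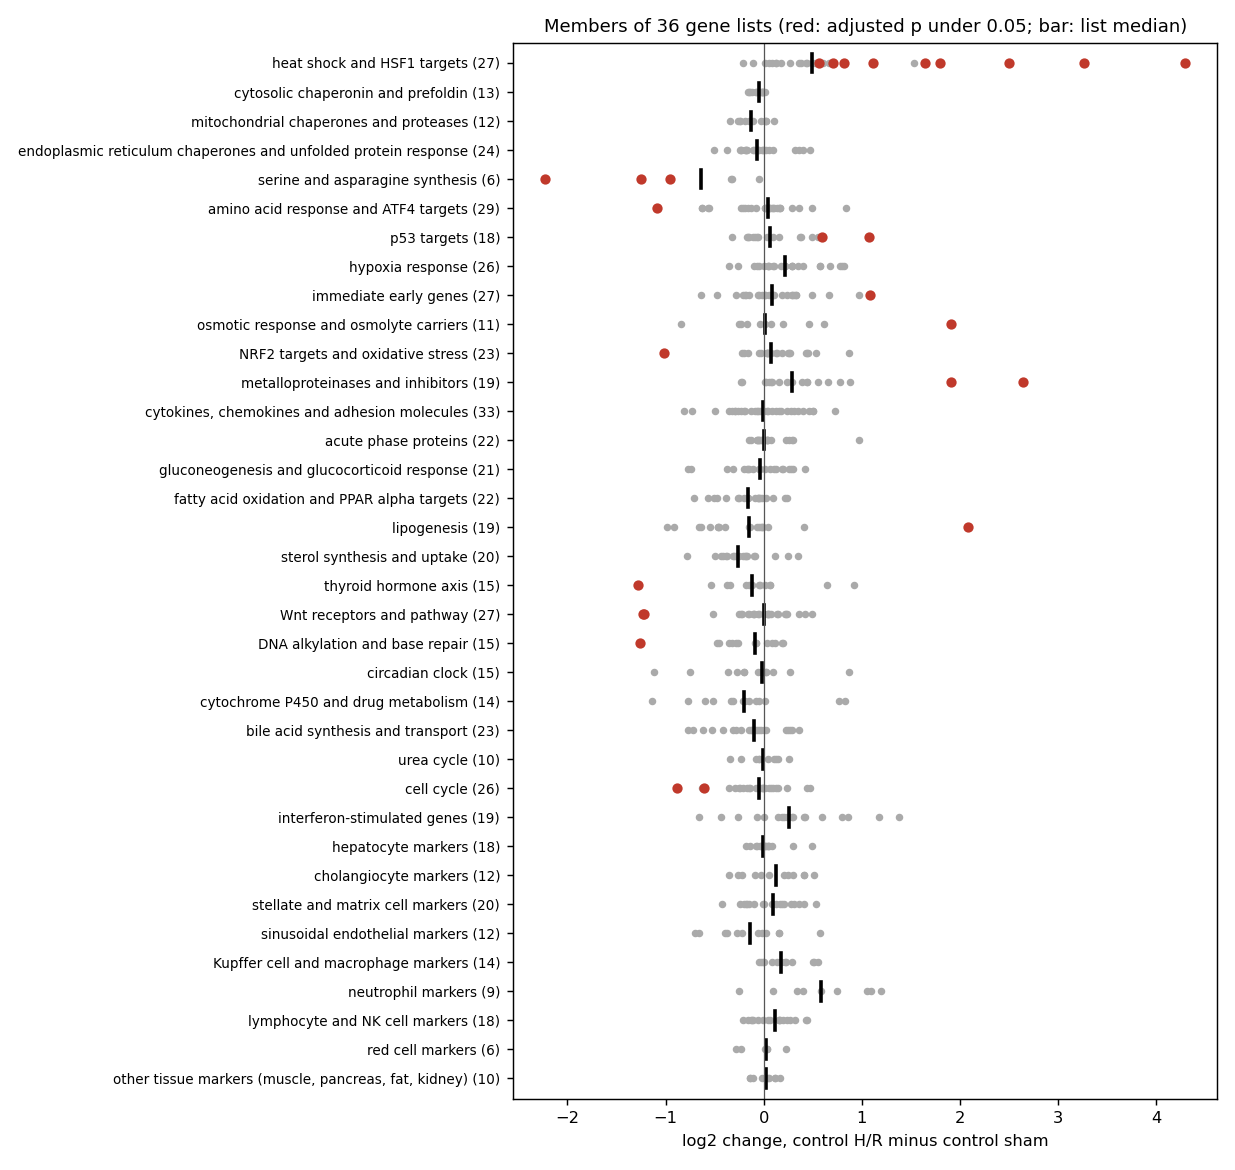
Log2 change from control sham to control H/R (x axis) of every measured member of the 36 gene lists (y axis, number measured in brackets), with genes past the threshold in red and a bar at the median of each list. Red points lie to the right of 0 in the heat shock list and to the left in the serine and asparagine list, and 23 lists hold none.

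The same contrast in ligated rats gave smaller absolute changes for 113 of the 115 genes, and for all 115 with simvastatin. These comparisons share no arrays with the control comparison, but the 115 were chosen by their control values, so a smaller value elsewhere is a description. In ligated rats without simvastatin 18 genes passed (0.134%), and 3 of them, Hspb1, Hsph1 and Hspe1, were among the 115. With simvastatin 0 passed in limma, with 725 genes at an unadjusted p under 0.05. The 49 genes that rose in control livers had median changes of 0.90 in control, 0.27 in ligated and 0.13 in simvastatin-treated rats, and the 66 that fell -0.77, -0.24 and -0.10. Over all 27 measured heat shock genes the medians were closer for ligated rats, at 0.49 in control, 0.39 in ligated and 0.10 in simvastatin-treated rats. Of these 27 genes 9, 3 and 0 passed. Mean Hspa1a went from 8.21 to 10.40 with H/R in ligated livers and from 8.33 to 9.67 in simvastatin-treated livers. The sign was the same in ligated rats for 95 of the 115, and in 60.4% of all genes, and in simvastatin-treated rats for 87 of the 115, and in 55.2% of all genes.

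The difference between the H/R effects was tested directly. Between ligated and control rats 1 gene passed (0.00744%), and between simvastatin-treated and control rats 7 passed (0.0521%). Clec4m was the gene that passed in both, by -1.46 ± 0.24 (adjusted p = 0.013) and -1.32 ± 0.24 (adjusted p = 0.014). Its level in the 4 ligated groups, 2.31 to 2.74 log2, was below background before and after H/R, so these differences are not folds. For Hspb1 the change was 4.30 in control, 2.50 ± 0.44 in ligated and 1.14 ± 0.41 in simvastatin-treated rats. The difference passed for the simvastatin pair (-3.16 ± 0.60, adjusted p = 0.029) but not once simvastatin sham replicate 1, the array with the large 3′ to 5′ differences, was left out (-3.05 ± 0.63, adjusted p = 0.064). For the ligated pair it did not pass (-1.79 ± 0.62, adjusted p = 0.72). The sham levels of Hspb1 were not alike: 6.01 ± 0.30 (SD, n = 5) in control, 7.36 ± 0.47 (SD, n = 5) in ligated and 7.61 ± 0.44 (SD, n = 5) in simvastatin sham livers, while the H/R levels were 10.30 ± 1.18 (SD, n = 6), 9.87 ± 0.76 (SD, n = 6) and 8.75 ± 0.89 (SD, n = 8). Control arrays also differed from the others in medians and spike-in values, so levels set between them here and below carry that difference too. Dnaja4 had effects of 2.50, 0.70 and 0.06, and the simvastatin difference of -2.44 ± 0.36 passed (adjusted p = 0.0013) where the ligated one of -1.80 ± 0.37 did not (0.11).

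Phgdh fell by 2.23 on the log2 scale in control livers and had changes of -0.42 ± 0.28 and 0.12 ± 0.26 in ligated and simvastatin-treated rats. The difference was 1.81 ± 0.40 for the ligated pair (adjusted p = 0.13) and 2.36 ± 0.38 for the simvastatin pair (adjusted p = 0.0041). Its sham levels were close, at 7.47 ± 0.57, 7.43 ± 0.34 and 7.15 ± 0.24 (SD, n = 5 each), and the control H/R level of 5.23 ± 0.55 (SD, n = 6) was the low one among the 6 groups. Ccng1 had effects of 1.07, 0.27 and 0.02 and passed for the simvastatin pair (-1.06 ± 0.20, adjusted p = 0.029). Otub2 passed for that pair as well (1.48 ± 0.30, adjusted p = 0.041), from mean levels of 4.22 in ligated sham and 4.06 in simvastatin sham livers that were already below the lowest control H/R array. The remaining gene, Dock9, which the rule for naming does not reach, was not among the 115 (log2 -0.36 in control and 0.47 in simvastatin-treated rats, difference 0.83 ± 0.16, adjusted p = 0.032). Without simvastatin sham replicate 1 the difference did not pass for Otub2 (1.53 ± 0.31) and Dock9 (0.69 ± 0.14), both with an adjusted p of 0.064, and it passed for Ccng1 (-1.25 ± 0.17, 0.00031), Clec4m (-1.40 ± 0.24, 0.0085), Dnaja4 (-2.39 ± 0.38, 0.0029) and Phgdh (2.29 ± 0.40, 0.0085). Over the 24 fits that each left out 1 array of the 4 groups, Dnaja4 and Phgdh passed in all 24, Clec4m in 23, Hspb1 in 15, Ccng1 in 12, Dock9 in 10 and Otub2 in 3.

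**Figure D5:**
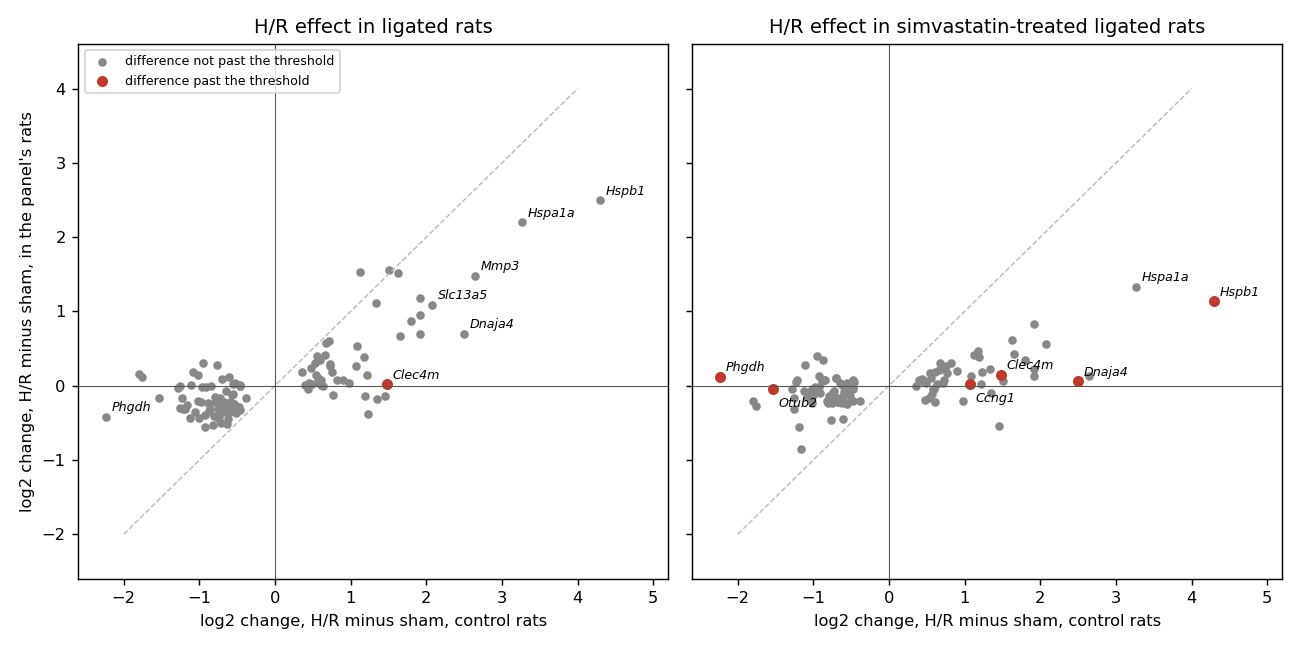
For each of the 115 genes the log2 change in control rats (x axis) is set against that in ligated rats (left, y axis) and in simvastatin-treated ligated rats (right), with the line of equal change dashed and genes whose difference passed in red. Most points lie nearer to 0 on the y axis than on the x axis.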

How the data were processed

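Liver RNA of 35 rats was measured on Affymetrix arrays with standard labelling, per the labels. The log2 values are those the authors deposited, 1 normalized value for each of 31139 probe sets and array. How they were background-corrected, normalized and summarised is stated neither in the labels nor in the files, so an effect of that step on the values could not be examined. Probe sets were named from the platform table: 19063 had 1 symbol, 572 several and 11407 none, and 97 were controls. The brightest single-symbol probe set by mean over all arrays stood for each of 13438 genes. limma 3.58.1 in R 4.3.3 fitted 1 mean per group to all 35 arrays (lmFit, eBayes). Benjamini-Hochberg adjustment ran over all genes with a threshold of 0.05, and the script was tested on simulated data. The number of arrays limits the precision.

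Named genes were the 15 largest rises and 15 largest falls past the threshold, list members past it and up to 3 further members of each list by p. All heat shock and serine list members were named too. Each test of a difference added up to 5 genes, those of smallest p among the genes past the threshold. Uncharacterised loci, chemosensory receptors and small RNA genes were left out of the ranking. The comparison, the 36 lists and this rule were chosen with earlier results of these data known. Alternatives were a fit of the compared groups alone, trended robust moderation, array weights, a filter on dim genes, quantile normalization, median centring, the mean of a gene's probe sets, every probe set as a feature, and each array left out in turn. Promoters came from RefSeq (GRCr8), and their match to the array's symbols is by name.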

Additional observations from a re-analysis of the deposited data

Results flagged for a closer look

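In 164 named genes the 5 control sham and the 6 control H/R arrays were each examined for an array standing apart, by the share of the group's range taken by the gap to the next array. It was so in 15 of 328 groups (4.57%), and chance gives about 1 in 20. Among sham arrays, replicate 3 was high in Ccl20 (ratio 0.878) and Slc4a1 (0.794), replicate 2 was high in Ccnd1 (0.811) and low in L3hypdh (0.775), replicate 5 was high in Gclm (0.82) and low in Hspa1a (0.737), replicate 4 was high in Mmp3 (0.763), and replicate 1 was high in Smpx (0.838). Among H/R arrays, replicate 5 was high in Fzd1 (0.764), replicate 3 high in Odad4 (0.685) and low in Tat (0.696), replicate 2 high in Phgdh (0.727), replicate 4 high in Rsad2 (0.708) and low in Nr1i2 (0.632), and replicate 1 low in Neil1 (0.653).

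The H/R change differed between control and ligated rats in limma for Clec4m, which rose in control livers and was below background in every ligated group (difference -1.46 ± 0.24, adjusted p = 0.013). Between control and simvastatin-treated rats it differed for Clec4m (-1.32 ± 0.24, adjusted p = 0.014), Hspb1 (-3.16 ± 0.60, 0.029), Dnaja4 (-2.44 ± 0.36, 0.0013) and Ccng1 (-1.06 ± 0.20, 0.029), whose rises were the smaller with ligation and drug, and for Phgdh (2.36 ± 0.38, 0.0041) and Otub2 (1.48 ± 0.30, 0.041), which fell in control livers, and for Dock9 (0.83 ± 0.16, 0.032). Hspb1, Otub2 and Dock9 did not pass without simvastatin sham replicate 1 (adjusted p = 0.064 for each).

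Probe sets without a single gene symbol were left out of the gene-level comparison. Tested as features of their own, 43 of 11979 (0.359%) passed between control H/R and sham, 20 higher and 23 lower.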

How the results depend on the processing

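None of the 115 genes reversed direction in the gene-level alternatives that tested it or with a control array left out. A fit of the compared groups alone, trended robust moderation and the filter on dim genes leave the group means unchanged. In these settings the direction could not reverse. The run with every probe set as a feature was not part of this check. Fitted on the compared groups alone, the control comparison gave 11 genes (8 higher, 3 lower), the ligated comparison 3, the ligated difference 0 and the simvastatin difference 3. With every probe set as a feature the control count was 159, with 75 higher, and the differences gave 2 (ligated) and 4 (simvastatin). Array weights gave 43 genes in ligated and 6 in simvastatin-treated rats, where the other settings gave 0 in the latter. The ligated difference passed in 0 genes with the filter on dim genes or median centring and 2 with quantile normalization or mean probe sets, and the simvastatin difference in 4 with quantile normalization and 12 with median centring. The cause of these shifts was not tested. With 1 array of the compared groups left out the control count ran from 50 to 190, the higher genes from 16 to 93 and the lower from 31 to 106. The ligated count ran from 2 to 45, the ligated difference from 0 to 5 and the simvastatin difference from 2 to 14. For the control count the extremes came without control H/R replicates 4 (50 and 16), 3 (190 and 106), 5 (93) and 6 (31). For the ligated count they came without ligated H/R replicate 1 (2) and ligated sham replicate 3 (45). The ligated difference was 0 without control sham replicate 1 or ligated sham replicate 3 or 4, and 5 without control sham replicate 3 or control H/R replicate 3. The simvastatin difference was 2 without control sham replicate 1 and 14 without control H/R replicate 3. An alternative chosen after seeing the data left simvastatin sham replicate 1 out of every fit, which gave 145 genes in control rats, 22 in ligated rats and a ligated difference in 1. Hspb1, Dnaja4, Ccng1, Clec4m, Tle3, Phgdh and Foxp2, 7 genes, passed in each gene-level alternative that tested them and with each control array left out. In the fit of the control groups alone, 2 heat shock genes, 1 serine gene, 1 p53 target and 0 metalloproteinases passed. Of 49 further probe sets of the 115 genes 42 had the same sign, 25 of them at an unadjusted p under 0.05. No paired analysis was possible because the control sham and control H/R labels share no replicate numbers that pair them. Signals near background limit what can be said of dim genes such as Clec4m, Mmp13 and Foxp2.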
